A study of Mus musculus with 6 samples.

Results

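A group of genes best known from white blood cells was followed in GLUTag cells, a mouse enteroendocrine cell line that makes glucagon-like peptide-1 and was derived from a tumour of the large bowel of mice carrying a viral oncogene under the proglucagon promoter. The 10 genes are Arhgap30, Wipf1, Itgal, Ptprc, Coro1a, Was, Itgb2, Lcp1, Dock2 and Cd52, and they were taken from the 54281 genes of the table by the symbol of their Ensembl identifier. Arhgap30, Wipf1 and Itgal were chosen on their level in these same libraries, so their levels are given here as a description. The other 7 were named as standard leukocyte genes, to see how far any wider blood-cell programme was present.

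The data are 6 libraries of 3′ mRNA sequencing from untreated cells of a single condition. Plate 1 (passage 23) and plate 2 (passage 27) gave 3 libraries each, and the cells of both plates were grown for 48 h on Matrigel in DMEM with 1 g/L glucose and 10% heat-inactivated FBS. No blood cells were sequenced, so there is no positive control for these genes. The libraries of plate 1 carry replicate numbers, whereas those of plate 2 are called lowest, middle and highest by their total count. The effects of plate and of passage cannot be told apart. The wells of a plate share a culture, so that p-values measure only the spread between these libraries.

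Levels are given as CPM, the counts of a gene scaled to a common library total. The method counts the 3′ end of a transcript once whatever its length, so CPM can be compared between genes. The totals lay between 21399987 and 36488198 counts, and a gene was called detected when it had more than 3 counts in every library, a floor that corresponds to between 0.0822 and 0.14 CPM. By this rule 12736 of 21805 protein-coding genes (58.4%) were detected, with a median level of 19.2 CPM among those detected. One library stood apart, that of plate 2 with the middle total: its highest correlation with another library was 0.975, against at least 0.992 for each of the other 5. Against the label of the cells, 12 of 12 enteroendocrine genes were detected, with a median of 213 CPM and Gcg, the gene of proglucagon, at 3416 ± 771 CPM (SD, n = 6). General epithelial markers were nearly absent, with 1 of 8 detected. Vil1 was at 2.13 CPM, while Epcam had 8 and Cdh1 10 counts in all, and Krt18 was the highest of the others at 0.137 CPM.

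The proteins of these genes link the surface of a leukocyte to its actin skeleton. CD45, encoded by Ptprc, is a receptor tyrosine phosphatase carried by nearly all nucleated blood cells and acts on Src family kinases. The integrin LFA-1 is a dimer of the alpha L chain (Itgal) and the beta 2 chain (Itgb2), and it needs both chains to reach the surface, where it binds ICAM proteins. WASP (Was) switches on the Arp2/3 complex to branch actin and is held stable by its partner WIP (Wipf1), which also binds the broadly expressed N-WASP (Wasl). Coronin 1A (Coro1a) and L-plastin (Lcp1) bind actin filaments, DOCK2 activates Rac, ARHGAP30 is a GTPase-activating protein, and CD52 is a small glycoprotein of the lymphocyte surface.

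The starts of these genes differ in base composition, and 4 of them are shown because they span the range of levels from the highest to the lowest. Promoters of 7 of the 10 genes were matched in RefSeq (GRCm38.p6), each from 250 bases before to 50 bases after the start. They are printed 5′ to 3′ on the strand of the gene, with capitals for AGGAAG, the core of many Ets family sites, read on either strand. The windows are chr1:171388710-171389009 on the plus strand for Arhgap30, and on the minus strand chr2:73529438-73529737 for the first start of Wipf1, chrX:8090442-8090741 for Was and chr1:138175256-138175555 for the first start of Ptprc.
Arhgap30: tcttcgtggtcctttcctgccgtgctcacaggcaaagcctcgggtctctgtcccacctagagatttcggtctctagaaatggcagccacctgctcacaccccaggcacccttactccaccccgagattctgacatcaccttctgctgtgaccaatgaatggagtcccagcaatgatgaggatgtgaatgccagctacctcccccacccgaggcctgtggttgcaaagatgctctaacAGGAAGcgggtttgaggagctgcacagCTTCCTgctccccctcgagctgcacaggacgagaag
Wipf1: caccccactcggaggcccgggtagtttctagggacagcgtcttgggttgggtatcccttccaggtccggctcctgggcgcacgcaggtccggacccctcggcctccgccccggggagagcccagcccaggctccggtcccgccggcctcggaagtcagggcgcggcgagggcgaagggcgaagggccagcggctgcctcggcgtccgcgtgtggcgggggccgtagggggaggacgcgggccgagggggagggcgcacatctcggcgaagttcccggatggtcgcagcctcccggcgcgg
Was: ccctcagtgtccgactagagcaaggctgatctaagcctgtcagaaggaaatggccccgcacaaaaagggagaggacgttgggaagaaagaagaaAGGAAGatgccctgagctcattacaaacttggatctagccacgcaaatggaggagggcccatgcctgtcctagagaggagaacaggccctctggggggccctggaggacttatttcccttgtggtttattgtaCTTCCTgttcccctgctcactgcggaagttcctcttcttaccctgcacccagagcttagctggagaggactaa
Ptprc: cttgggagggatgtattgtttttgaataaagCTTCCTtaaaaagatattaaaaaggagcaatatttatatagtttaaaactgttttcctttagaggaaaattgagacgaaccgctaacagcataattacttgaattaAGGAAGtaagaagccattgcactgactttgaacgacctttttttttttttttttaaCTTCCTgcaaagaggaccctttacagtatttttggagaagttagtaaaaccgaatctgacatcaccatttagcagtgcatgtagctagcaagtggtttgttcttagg

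The first Wipf1 start was the richest of these windows in CpG, with 37 CpG, a GC content of 75.3% and an observed-over-expected CpG ratio of 0.878, against medians of 7 CpG, 52.7% and 0.384 over 32851 mouse promoters. It held no Ets core and 1 GC box, spelled GGGCGG and read on either strand. The Arhgap30 window held 9 CpG at a GC content of 57%, close to those medians, and 2 matches to the Ets core. The Was window held 5 CpG at 53.3% and 2 matches, and the Ptprc window 4 CpG at 33.7%, 3 matches and 1 match to the letters of a TATA box, on the strand opposite to the gene. The Ets core was found in 35.4% of all promoters of this length, the GC box in 35.7% and the TATA box, spelled TATAAA and read on either strand, in 13.6%, so a match says little by itself. The first start of Coro1a held 19 CpG and 2 GC boxes and that of Lcp1 19 CpG and 4 GC boxes, with no Ets core in either, whereas Dock2 held 5 CpG and 2 overlapping matches. The second start of Coro1a held 10 CpG and 1 Ets core, and that of Lcp1 4 CpG and no GC box. Wipf1 differed between its starts. Its starts 2 and 3 held 4 and 1 CpG at a GC content of 45.7% and 41.7%. Each of these held no GC box and 3 matches to the Ets core, which overlapped in part at start 2. Start 2 of Ptprc held 2 CpG and 1 Ets core. Which start was used in these cells was not tested. At the first starts, the order of CpG content did not follow the order of levels among the 7 genes. The first start of Lcp1 was CpG-rich, with the gene at 0.488 CPM, and that of Arhgap30 was not, with the gene at 43.6 CPM.

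Of the 10 genes, 5 were detected, beside 58.4% of protein-coding genes. In order of mean level these were Arhgap30, Wipf1, Coro1a, Itgal and Was, and the remaining 5, Lcp1, Itgb2, Cd52, Dock2 and Ptprc, had 3 counts or fewer in at least 1 library. Of the 7 genes that were not chosen on their level, 2 were detected, and the median of the 7 was 0.196 CPM, against 2.61 CPM over all protein-coding genes. In RNA from whole wells, a few cells with a high level and many cells with a low level cannot be told apart.

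**Figure D1:**
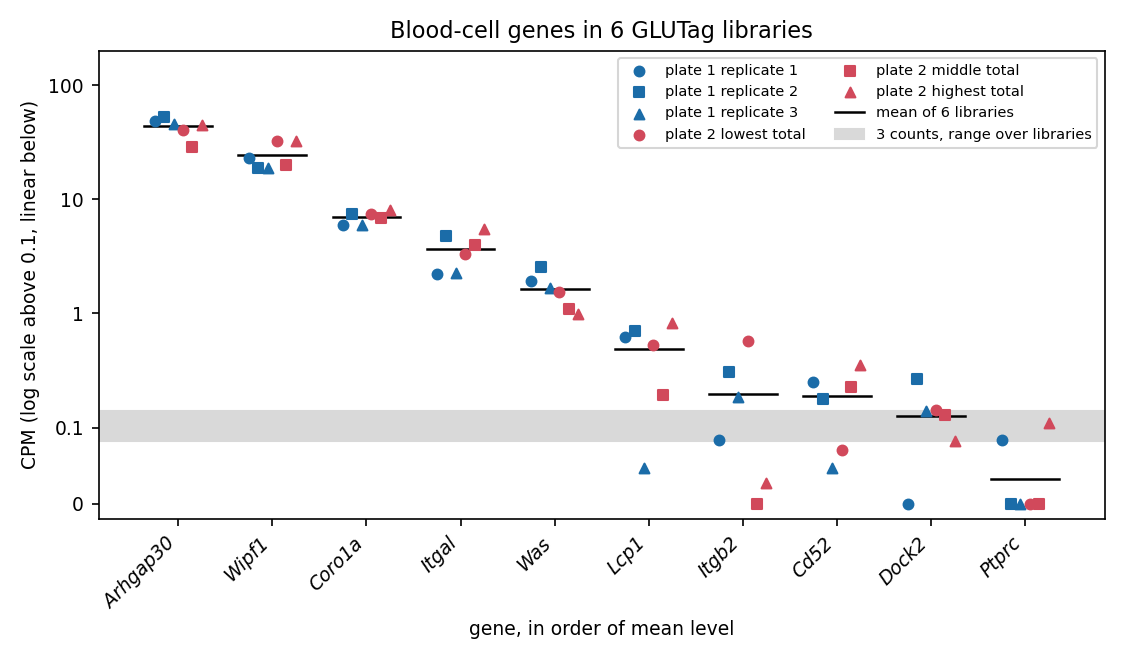
Level in CPM of each of the 10 blood-cell genes (x axis, in order of mean) in the 6 libraries, on an axis that is logarithmic above 0.1 CPM and linear below. Points are libraries, bars the mean of 6, and the grey band the level of 3 counts. Arhgap30 and Wipf1 lie above 18 CPM in every library, and Lcp1, Itgb2, Cd52, Dock2 and Ptprc fall into or below the band in at least 1 library.

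Arhgap30 (ENSMUSG00000048865, chr1:171388954-171410298, plus strand, 12 exons in its longest annotated form) was the highest of the 10. Its levels in replicates 1, 2 and 3 of plate 1 were 48.6, 52.9 and 45.9 CPM, and those in the plate 2 libraries of lowest, middle and highest total were 40.6, 28.7 and 45.03 CPM. The 3 libraries of plate 1 were all above the 3 of plate 2, with the middle-total library lowest. In CPM, 4.08% of the 15271 detected genes were separated in this direction and 35.5% in the other. The mean of 43.6 ± 8.38 CPM (SD, n = 6) placed it at rank 3712 of 21805 protein-coding genes, 2.27 times the median of the detected ones. Each library held between 886 and 1643 counts, so counting error is small here. The next gene downstream on its strand, Usf1, starts 1014 bases beyond its end and had 6.67 ± 4.08 CPM, and Nectin4, 355 bases upstream, had 0.795 ± 0.214 CPM, so neither neighbour reached the level of Arhgap30. Of the 31-base words of its transcripts, 0.983% occur in other genes.

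Arhgap30 was also the highest of its closest relatives. The genes of the CdGAP group were each detected (4 of 4), with Arhgap32 at 6.21 ± 1.66, Arhgap33 at 5.64 ± 2.76 and Arhgap31, the broadly expressed CdGAP itself, at 4.13 ± 1.40 CPM (SD, n = 6). Arhgap31 was below Arhgap30 in each of the 6 libraries, by a log2 difference of -3.14 ± 0.65 (Arhgap31 minus Arhgap30, CPM + 1).

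Wipf1 (ENSMUSG00000075284, chr2:73429610-73529734, minus strand) had 22.9, 18.7 and 18.8 CPM in plate 1 and 32.2, 20.02 and 32.7 CPM in plate 2. The lowest- and highest-total libraries of plate 2 were above the rest, and the middle-total library lay within the range of plate 1. The mean was 24.2 ± 6.57 CPM (SD, n = 6), rank 5617 of the protein-coding genes and 1.26 times the median of the detected ones. None of the 31-base words of its transcripts occurs in another gene. Its range touched that of Arhgap30, whose lowest library was at 28.7 CPM, although Arhgap30 was higher within each of the 6 libraries.

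Of the WASP and WIP families, Wipf1 and Was included, 10 of 10 genes were detected, beside 58.4% of protein-coding genes, with a median of 23.7 CPM. Wasl, the gene of N-WASP, led with 90.7 ± 10.9 CPM, and Wipf2, a relative of WIP, had 41.3 ± 3.08 CPM. Wipf1 was thus below Wipf2, by 0.78 ± 0.33 on the log2 scale and in each of the 6 libraries. The 9 genes listed for the Arp2/3 complex, the actin-branching target of WASP proteins, alternative forms of a subunit included, were each detected too, with a median of 186 CPM.

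Was itself (ENSMUSG00000031165, chrX:8081453-8090498, minus strand) was the lowest of its list. It had 1.92, 2.55 and 1.68 CPM in plate 1 and 1.53, 1.10 and 0.987 CPM in plate 2. The plates thus did not overlap, with plate 2 lower, as for 4.08% of detected genes. The mean was 1.63 ± 0.572 CPM (SD, n = 6), or 0.0847 times the median of detected protein-coding genes. The level is uncertain in one respect, since 7.52% of the 31-base words of its transcripts occur in other genes, the largest number in Rnf138 (13.7 CPM). How reads from such shared stretches were divided was not tested. Wasl exceeded Was by 5.14 ± 0.38 on the log2 scale, with a range of 4.62 to 5.68 over the 6 libraries.

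Itgal (ENSMUSG00000030830, chr7:127296260-127335138, plus strand, up to 32 exons) had 2.21, 4.73 and 2.24 CPM in plate 1 and 3.31, 4.01 and 5.48 CPM in plate 2. The plates overlapped through replicate 2 of plate 1. The mean was 3.66 ± 1.33 CPM (SD, n = 6), rank 10459 of the protein-coding genes. That is 0.191 times the median of the detected genes, so Itgal was seen in every library but was not abundant. A single 31-base word of its transcripts occurs in another gene, and the nearest annotated genes on its strand, Gm31897 upstream and Smt3h2-ps2 downstream, were at 0 in every library.

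Its partner chain in LFA-1 was nearly absent. Itgb2 (ENSMUSG00000000290, chr10:77530252-77565708) had 2, 7 and 4 counts in replicates 1, 2 and 3 of plate 1 and 16, 0 and 1 counts in the lowest-, middle- and highest-total libraries of plate 2. Itgal had 53, 107, 48, 93, 124 and 200 counts in the same libraries. In plate 1 Itgal was 26.5 times Itgb2 in replicate 1 (95% exact interval 6.98 to 225, counting error only), 15.3 times in replicate 2 (7.17 to 38.9) and 12 times in replicate 3 (4.39 to 45.8). In plate 2 it was 5.81 times in the lowest-total library (3.40 to 10.6), at least 41.3-fold higher in the middle-total library, set against a floor of 3 counts per library, and 200 times in the highest-total library, where a single Itgb2 count gives an interval of 35.5 to 7939. Itgal was the higher in each library, which is a description, since it was chosen on its level. The mean of Itgb2 was 0.196 ± 0.216 CPM (SD, n = 6), with 16 of its 30 counts in 1 library.

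Some other integrin chains were at higher levels. Of 18 alpha chains, Itgal included, 12 were detected (66.7%), and the median of the 18 was 1.89 CPM, below Itgal. Of 8 beta chains 5 were detected (62.5%), beside 58.4% of protein-coding genes. The alpha chains were led by Itga6 at 49.2 ± 8.999 CPM, a laminin-binding chain of epithelia, and Itga4 at 11.4 ± 1.27 CPM, which is also common on leukocytes. The beta chains were led by Itgb1 at 89.2 ± 20.1 CPM, the partner of both of those chains, and Itgb5 at 10.8 ± 3.71 CPM. Itgb7, a second leukocyte beta chain that pairs with Itga4, had 2.32 ± 0.761 CPM. Itgam, a chain that like Itgal needs Itgb2 as its partner, had 1.24 ± 0.523 CPM. Among 13 ligands and activators of LFA-1, 10 were detected, with Rap1b at 362 ± 52.0 and the integrin activator Tln1 at 62.4 ± 9.01 CPM. Of the ICAM genes listed, Icam4 was highest at 6.18 ± 1.49 CPM, with Icam1 at 3.01 ± 0.752 and Icam5 at 0.986 ± 0.249 CPM. Icam2 was not detected.

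Coro1a (ENSMUSG00000030707, chr7:126699773-126707787, minus strand) was the highest of the 7 genes not chosen on level. It had 5.92, 7.47 and 5.94 CPM in plate 1 and 7.41, 6.79 and 8.06 CPM in plate 2. It varied least of the 10 genes, at 6.93 ± 0.874 CPM (SD, n = 6) with a coefficient of variation of 12.6%, and the plates overlapped. Its range lay wholly between those of Wipf1 and Itgal. None of its 31-base words occurs elsewhere, but 26 of its exonic bases overlap Bola2 on the opposite strand, which was at 212 CPM. Whether the counting used strand is not given in the sources used here, and a share of Bola2 reads in Coro1a was not tested.

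Of 7 coronins, Coro1a included, 6 were detected, beside 58.4% of protein-coding genes. Coro1c, the broadly expressed form, had 140 ± 27.3 CPM, Coro2a 36.2 and Coro2b 17.6 CPM. Coro1b, another broad form, had only 1.17 ± 0.533 CPM and was below Coro1a in each library. This value is uncertain, since 402 of the 31-base words of Coro1b are shared with the overlapping gene Ptprcap on the same strand, which had 60.4 ± 12.7 CPM. Ptprcap encodes a CD45-associated protein of lymphocytes, and because 26.8% of its exonic bases lie in Coro1b and 76.0% lie opposite Rps6kb2 (18.1 CPM), its own level is uncertain as well.

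Lcp1 (ENSMUSG00000021998, chr14:75131101-75230842) lay just outside the detection rule. It had 0.625, 0.707 and 0.0467 CPM in plate 1 and 0.534, 0.194 and 0.822 CPM in plate 2, and was above 3 counts in 5 of 6 libraries. Replicate 3 of plate 1 held almost none, and the mean was 0.488 ± 0.304 CPM (SD, n = 6). Was was the nearest gene inside the rule. Of the words of Lcp1, 8.82% occur in other genes, most in Gm6201, which was at 0. Among the plastins, actin-bundling proteins, Pls3 had 54.3 ± 8.30 CPM and Pls1, the form of intestinal brush borders, 1.09 ± 0.434 CPM.

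The last 3 genes were near the floor, with Cd52 above 3 counts in 4 of 6 libraries, Dock2 in 3 and Ptprc in 1. Cd52 (chr4:134082448-134095082) had 6, 4 and 1 counts in plate 1 and 2, 7 and 13 in plate 2, and 14.5% of its exonic bases lie opposite Crybg2 (8.95 CPM). Dock2 (chr11:34226815-34783892) had 0, 6 and 3 counts in plate 1 and 4, 4 and 3 in plate 2. Ptprc (chr1:138062861-138175708), the gene that defines leukocytes as a class, had 2, 0 and 0 counts in plate 1 and 0, 0 and 4 in plate 2, that is 6 counts in the 6 libraries together. A count of 0 allows up to 3 counts, and these floors cover counting error only. From Lcp1 to Ptprc the ranges of genes next to each other in the order overlapped, and none of these neighbours kept its order in every library.

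Transcripts of related genes were detected, and the counts below stand beside 58.4% for all protein-coding genes. Of 14 DOCK and ELMO genes 13 were detected, all but Dock2. Dock11, a Cdc42 activator, was highest at 37.3 ± 13.8 CPM, and Dock8, which is prominent in lymphocytes, had 12.1 ± 5.12 CPM with its lowest value, 2.75 CPM, in the middle-total library of plate 2. Of 19 receptor tyrosine phosphatases 14 were detected, led by Ptprs at 60.3, Ptprg at 50.3 and Ptprn at 44.5 CPM, the last a protein of secretory granules. Of 10 genes whose products act with CD45, 9 were detected. Skap2 was highest at 120 ± 18.3 CPM, the Src family kinase Fyn had 73.2 ± 8.39 and the inhibitory kinase Csk 15.3 ± 1.67 CPM, while Lyn, a kinase of B and myeloid cells, had 4 counts in all.

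To see whether the broad or the blood-cell form of a protein was present, 19 pairs of related genes were compared within each library. The broadly expressed gene was higher in every library in 16 pairs, the blood-cell gene in 2 (Coro1a and Arhgap30), and the pair of Itgal and Itgav was mixed. Arhgap30 was chosen on its level, and Coro1a was above Coro1b but below Coro1c, the more abundant broad form, in each library. The 6 pairs whose blood-cell gene was a member not chosen on its level were tested by flipping the signs of the 6 differences in all ways (exact permutation test, two-sided). In this exact test each pair gave p = 0.03125, the smallest this design allows, and 0.03125 after Benjamini-Hochberg adjustment over the 6 pairs. Any pair with the same order in all 6 libraries gives this value, so it adds nothing to that order. Wells of a plate share a culture, which the test does not take into account. The broad gene was higher in 6 of 6 libraries in 5 of them, by 6.22 ± 0.47 on the log2 scale for Itgb1 over Itgb2, 5.23 ± 0.29 for Pls3 over Lcp1, 5.14 ± 0.38 for Wasl over Was, 5.04 ± 0.31 for Ptpra over Ptprc and 0.55 ± 0.36 for Dock1 over Dock2. Dock1 was itself low, at 0.690 ± 0.436 CPM. In the remaining pair the difference of Coro1b from Coro1a was -1.90 ± 0.45, with the overlap of Coro1b and Ptprcap noted above. These differences were taken on log2 of CPM + 1, a scale that understates the change of low genes. Their size depends on the CPM added. With 0.1 and 5 CPM added, the difference was 8.04 and 2.92 for Ptpra over Ptprc. For Dock1 over Dock2 it was 1.70 and 0.15.

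In the 10 pairs with no member the broad gene was higher in each library, by mean log2 differences from 2.06 for Vav2 over Vav1 to 8.15 for Rac1 over Rac2. Rac1 was at 291 ± 34.3 CPM with Rac2 at 0.0182 ± 0.0289, Arhgdia at 105 ± 8.73 with Arhgdib at 0.0124 ± 0.0201, and Cttn at 147 ± 33.6 with Hcls1 at 0.0374 ± 0.0334 CPM. These 3 pairs had the widest gaps, and other blood-cell forms were detected, among them Gmfg at 1.94 CPM beside Gmfb at 88.0 and Nckap1l at 1.92 CPM beside Nckap1 at 97.4.

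**Figure D2:**
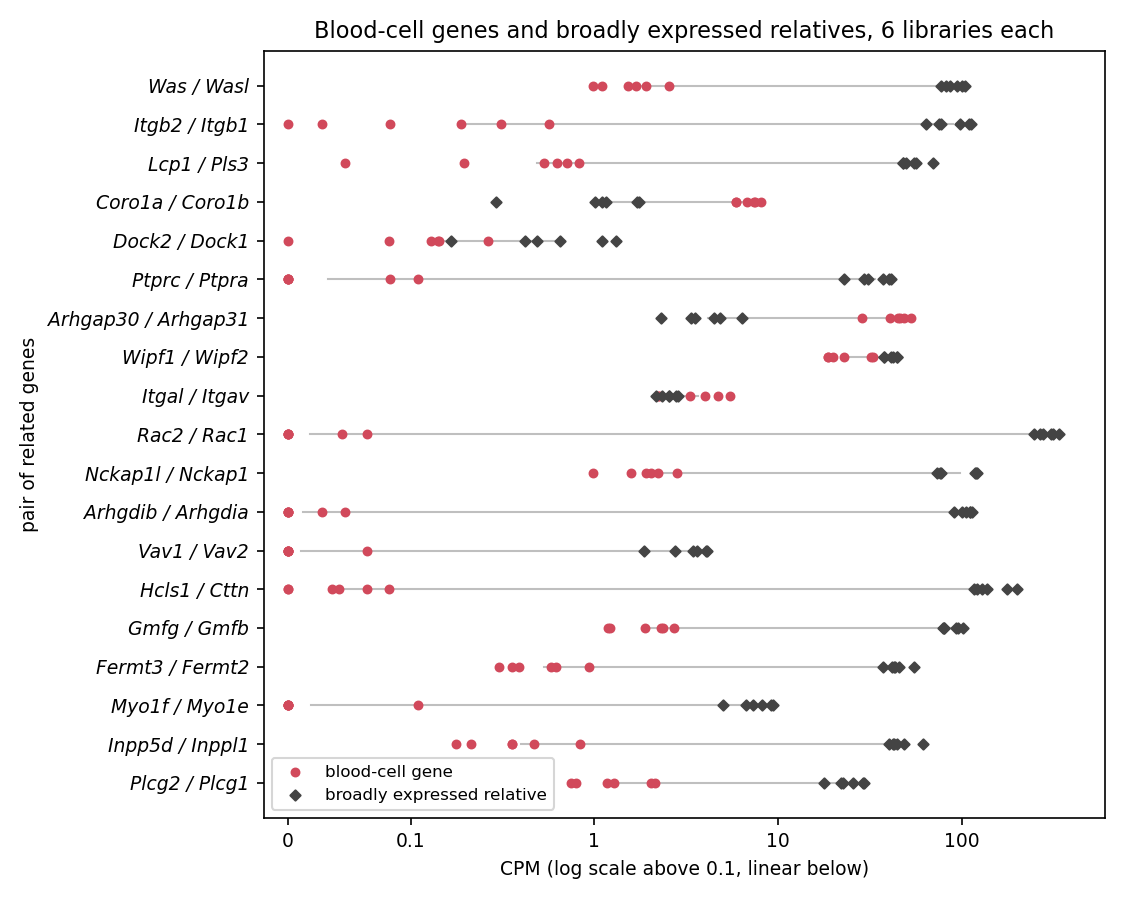
Level in CPM (x axis, logarithmic above 0.1 and linear below) of the blood-cell gene (red circles) and its broadly expressed relative (dark diamonds) in 19 pairs, with 1 point per library and a grey line between the means. The dark points lie to the right in 16 pairs, and Coro1a and Arhgap30 are the 2 genes that exceed their relative in every library.

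A list of 30 further pan-leukocyte genes was used to see how wide the pattern was. Of these, 8 were detected (26.7%), with a median of 0.0421 CPM, beside 28.1% of all 54281 genes and 58.4% of protein-coding ones. Cd53, Ikzf1, Cd48, Fcer1g, Arhgap15 and Evi2a were at 0 in every library, 6 of the 30. Spi1, the gene of the myeloid and B cell factor PU.1, had 7 counts in all. The highest was Lcp2, which encodes the adaptor SLP-76 of T cell and platelet signalling. It had 13.5, 13.4 and 14.4 CPM in plate 1 and 10.9, 9.09 and 12 CPM in plate 2. Only Lcp2 reached 10 CPM, and Plek at 2.21, Gmfg at 1.94 and Nckap1l at 1.92 CPM came next. The list summed to between 21.6 and 24.3 CPM in plate 1 and 19.6 and 22.7 CPM in plate 2.

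For none of 9 blood cell types were most of the markers detected. Over the 9 lists, with 81 genes, 21 were detected (25.9%), with a median of 0.0412 CPM, and 2 were at 10 CPM or more. Of all 54281 genes 28.1% were detected, and of protein-coding genes 58.4%, with a median of 2.61 CPM over the latter. Of 10 T cell genes 2 were detected, the kinase Lck at 5.20 ± 1.41 CPM and Cd2 at 0.509 ± 0.240, while Cd3e had 4 counts in all and Cd5 and Cd8a none. Of 8 B cell genes 2 were detected, the transcription factor Pax5 at 7.07 ± 1.93 CPM and Cd22 at 0.619 ± 0.387, while Cd79a had 7 counts in all and Cd79b none. None of 8 NK cell genes was detected. Of 12 macrophage genes 4 were, with Mrc1 highest at 1.32 CPM and the receptor gene Csf1r at 0.028 CPM. Summed over its list, the level lay between 4.68 and 8.54 CPM for T cells, 5.88 and 11.3 CPM for B cells, 2.66 and 6.02 CPM for macrophages and 0.0274 and 0.214 CPM for NK cells.

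The genes at 10 CPM or more in these lists were Cxcr2 and Gp1bb, and each shares sequence with other genes. Cxcr2, a chemokine receptor of neutrophils, had 160, 182 and 143 CPM in plate 1 and 111, 32.1 and 138 CPM in plate 2, and 7.70% of its 31-base words occur in other genes, the largest number in Dnajb14, which was at 1654 CPM. How reads from such stretches were divided was not tested. The neutrophil markers S100a9, Ly6g, Ngp and Ltf were at 0 in every library, and Csf3r was at 1.44 CPM. Gp1bb, a platelet receptor gene, had 64.9 ± 13.4 CPM, and 91.1% of its exonic bases also lie in Sept5 on the same strand. Of 8 mast cell genes 3 were detected, among them Hdc, the histamine-forming enzyme, at 9.70 ± 1.77 CPM and the receptor Kit at 7.95 ± 4.61 CPM, while Fcer1a, Cpa3, Mcpt4 and Tpsb2 were at 0. Of 8 dendritic cell genes 2 were detected, Zbtb46 at 3.95 and Irf8 at 3.29 CPM, with Flt3 at 0. Of 9 erythroid genes 3 were detected, with Hba-a2 highest at 2.18 CPM, and Hba-a1 and Hba-a2 are near-identical copies between which reads cannot be placed with certainty.

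Of 8 endothelial genes only Pecam1 was detected, which is also carried by platelets and leukocytes. Of its 31-base words 2.11% occur in other genes, the largest number in Tnrc6c (47.6 CPM). Pecam1 had 39.6, 58.8 and 99.8 CPM in plate 1 and 23.7, 3.41 and 32.7 CPM in plate 2. The middle-total library of plate 2 was thus the lowest for Arhgap30, Cxcr2 and Pecam1 alike. It was also the lowest for the enteroendocrine genes Scg2 (32.1 CPM) and Neurod1 (487 CPM), but not for Wipf1, Itgal or Coro1a. Of 8 fibroblast genes 1 was detected, Col1a2.

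**Figure D3:**
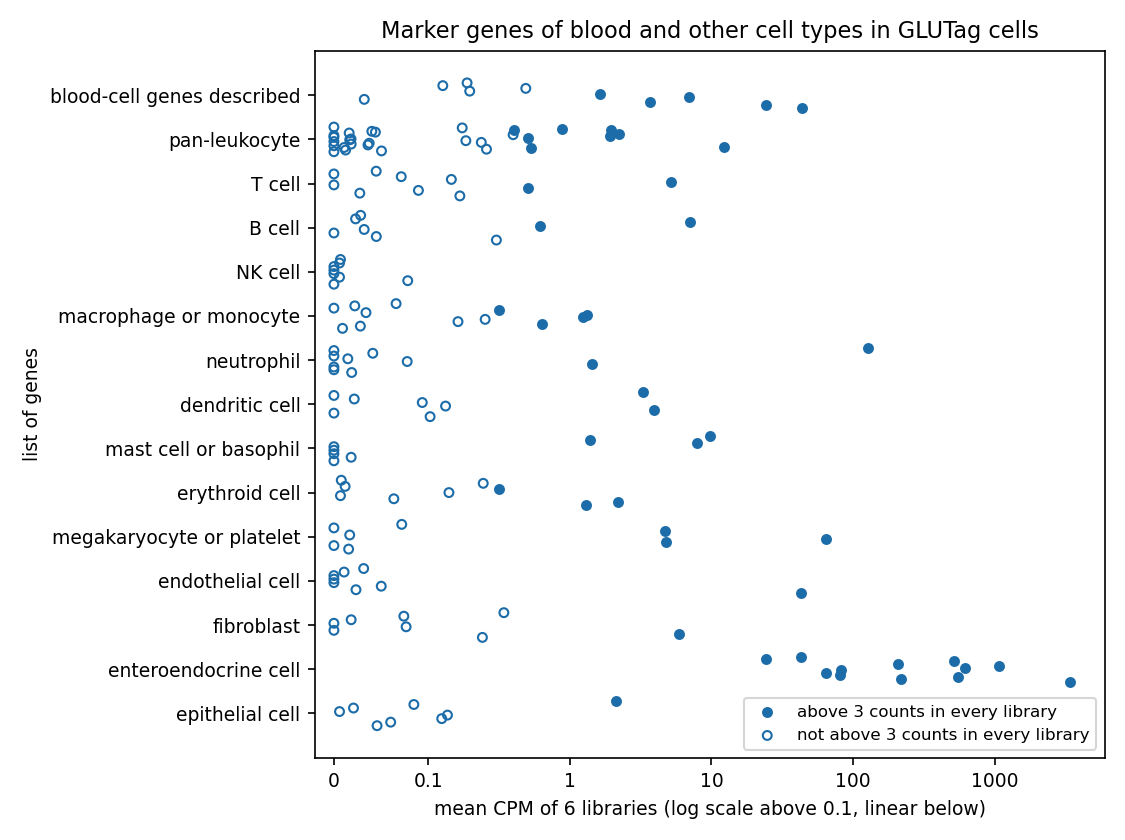
Mean level of 6 libraries in CPM (x axis, logarithmic above 0.1 and linear below) of each gene of the 10 described and of 14 marker lists (y axis). Filled points are genes above 3 counts in every library and open points the others. The enteroendocrine list is filled throughout, whereas 21 of the 81 markers of 9 blood cell types are filled.

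Last, the plates were compared to see whether the blood-cell genes differed between the cultures at passage 23 and passage 27. Of 15669 genes tested with edgeR, 29 passed an adjusted p of 0.05 (0.185%). Of the 10 members 6 could be tested, and 0 of them passed, also with limma-voom. Of these, 2 had an unadjusted p under 0.05, as did 2520 (16.1%) of all genes tested. Cd52, Dock2, Itgb2 and Ptprc did not pass the filter on low counts.

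Arhgap30 and Was, the genes whose plates did not overlap, had the lowest p-values of the 6. In CPM, the plates did not overlap with plate 2 lower for 4.08% of the 15271 detected genes, and with plate 2 higher for 35.5%. In edgeR the log2 fold change of plate 2 over plate 1 was -0.64 for Arhgap30 (SE 0.17, 95% interval -1.03 to -0.25, adjusted p = 0.142) and -1.05 for Was (SE 0.33, 95% interval -1.78 to -0.31, adjusted p = 0.177). Without the middle-total library of plate 2, the change of Arhgap30 was -0.51 and passed, with an edgeR adjusted p of 0.0116, where 1911 genes (12%) passed in all. DESeq2 also called Arhgap30 (adjusted p = 0.0329), with 1.96% called of the genes given a p-value, not all of which had an adjusted p. So did edgeR without the filter on low counts (adjusted p = 0.0168, with 2.02% called). Over all alternatives the adjusted p of Arhgap30 ranged up to 0.429, and its change was negative in each. The other 4 had log2 fold changes in edgeR of 0.22 for Wipf1, 0.21 for Itgal, -0.07 for Coro1a and -0.11 for Lcp1, with adjusted p-values between 0.636 and 0.967. Without the middle-total library the change of Wipf1 was 0.38 (95% interval 0.12 to 0.65, edgeR adjusted p = 0.0583) and that of Lcp1 0.24, and that of Was was -1.03 with an edgeR adjusted p of 0.09996. With no scaling beyond the total count the change of Wipf1 was 0.49 (95% interval 0.03 to 0.96, edgeR adjusted p = 0.138). The median over all genes tested was then 0.299.

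**Figure D4:**
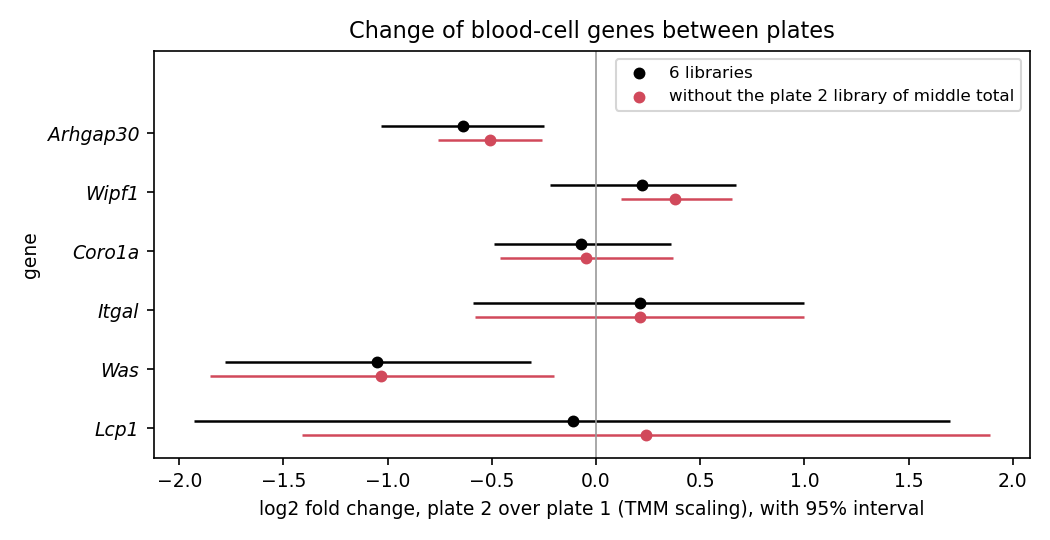
Log2 fold change of plate 2 over plate 1 (x axis, TMM scaling) with its 95% interval, not adjusted for the number of genes, for the 6 blood-cell genes that could be tested, over 6 libraries (black) and without the middle-total library of plate 2 (red). The intervals of Arhgap30 and Was lie below 0 in both, those of Coro1a, Itgal and Lcp1 span it in both, and that of Wipf1 spans it over 6 libraries and lies above it without the middle-total library.

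A few genes took a large share of the libraries. The noncoding RNA Bc1 took between 9.74% and 12% of the counts in plate 1 and between 3.44% and 4.77% in plate 2, and mitochondrial genes took between 3.98% and 4.85% in plate 1 and between 4.62% and 7.27% in plate 2. With no scaling beyond the library total the log2 changes of all genes tested had a median of 0.299, and 1461 genes passed. The part of Bc1 and of mitochondrial genes in the changes of single genes was not tested.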

How the data were processed

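The authors trimmed the reads with Trim Galore 0.6.4 and assigned them with Salmon 1.5.1, without length correction, to GENCODE M23 transcripts on GRCm38. The deposited table holds expected counts, estimates per gene that need not be whole, and the authors applied no normalization to them. CPM was computed from the unrounded counts, which were rounded for edgeR and DESeq2. Symbols and positions are from GENCODE M21 on the same build, which matched 54107 of 54281 identifiers.

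Plate 2 was set against plate 1 with the robust quasi-likelihood test of edgeR 4.0.16, after filterByExpr and TMM scaling and with Benjamini-Hochberg adjustment over all genes tested. Pairs of genes were compared by an exact sign-flip permutation test on log2(CPM + 1). DESeq2 1.42.0, limma-voom (limma 3.58.1), other scalings, filters and pseudocounts, and the omission of each library were alternatives. The edgeR, DESeq2 and limma-voom fits were tested on simulated data. Shared words were counted with a length of 31 bases over annotated transcripts. R 4.3.3, Python 3.11.15, numpy 2.4.6 and pandas 2.3.3 were used.

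The members and lists were chosen with earlier results of these data known. Named were the 10 members, both genes of each pair, the highest genes and the defining markers of each list, and genes overlapping or next to a member. Relatives such as Itgb7, Itgam, Dock8, Icam1 and Spi1 were named outside this rule after their values were seen. The result of 1 further list is not reported here.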

Additional observations from a re-analysis of the deposited data

How the results depend on the processing

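The count of genes that differ between plates, 29 in edgeR after a filter on low counts, was 545 in edgeR without the filter. DESeq2, which was run without that filter, gave a p-value for 27013 genes and called 530. Its own filter on low counts left some of these genes without an adjusted p, among them Cd52, Dock2, Itgb2, Lcp1 and Ptprc. Its count is therefore not one without a filter. The count was 1461 without scaling beyond the total, and 0 to 1911 as each library was left out. It was 0 in edgeR without replicate 1 of plate 1 (1611 at an unadjusted p under 0.05) or without the lowest-total library of plate 2 (2121). Without the middle-total library of plate 2 it was 1911. The number of member genes that differ, 0 in edgeR, was 1 with DESeq2, 1 without a filter and 0 to 1 as each library was left out. The change of Coro1a turned to 0.20 and that of Lcp1 to 0.17 without scaling, where the median of all genes moved from 0.031 to 0.299, so that these turns are not particular to the 2 genes, and that of Lcp1 to 0.27 with limma-voom. As each library was left out, the changes ranged from -0.14 to 0.07 for Coro1a, -0.64 to 0.34 for Lcp1, -0.01 to 0.69 for Itgal and 0.1 to 0.38 for Wipf1. The cause of the other changes was not tested.

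With more than 3 counts in any library rather than in every library, 10 of the 10 members were detected in place of 5, and the number was 5 to 6 as each library was left out. Under rules added after the data were seen, the 8 pan-leukocyte genes detected became 3 at 1 CPM in every library and 18 with more than 3 counts in any library, and the 21 blood cell markers became 11 and 43. The 6 tested pairs kept their direction at pseudocounts of 0.1 and 5 CPM and as each library was left out. No paired analysis was run, because replicate numbers of plate 2 in the labels run on from those of plate 1, and the numbers within a plate that the columns carry could not be matched to those of the labels. For the 4 members below the filter, edgeR without it gave wide intervals, from -3.58 to 3.89 on the log2 scale for Ptprc and from -1.90 to 2.32 for Cd52.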
